A study of Mus musculus with 18 samples.

Results

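Ventricular cells sorted for green fluorescent protein (GFP) were compared between 2 successive days of mouse development, E13.5 and E14.5. Both groups came from Wt1GFPKI mice, in which GFP is expressed from the Wt1 locus, and no other allele, agent or treatment is given for either. Hearts were dissociated with enzymes and the GFP-positive ventricular cells were lysed directly after the sort. The arrays were chosen by their stage label, 3 for E13.5 and 3 for E14.5 of 18 arrays in the series, which holds 3 for each of 6 daily stages from E11.5 to E16.5. Of 12881 named genes tested, the 12409 on chromosomes other than X and Y are described. The submitters' title calls the cells cardiomyocytes and gives them the mark (M), which the labels do not explain. Nothing states that replicates were separate litters, so the p-values cover no more than the spread among arrays, part of which may be technical. That spread was pooled over all 18 arrays.

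During this stretch of gestation the compact wall of the ventricle thickens, its muscle cells add sarcomere proteins and mitochondria, and coronary vessels spread through the wall. Wt1, a zinc finger transcription factor, is best known in the heart from the epicardium, the outer layer that gives rise to fibroblasts and smooth muscle. Sarcomeres are the contractile units of muscle, the sarcoplasmic reticulum stores the calcium that triggers each beat, and beta-oxidation breaks fatty acids down in mitochondria.

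The labelled cell type was first set against its markers. Probes of the sarcomere genes Myl2, Myl3, Tnnc1 and Actc1 lay between 13.51 and 14.08 on all 6 arrays, on a log2 intensity scale that ended at 14.08. Aldh1a2, an epicardial enzyme of retinoic acid synthesis, was not above background on any of the 6 arrays. Tbx18, an epicardial transcription factor, was low, at 5.68, 5.58 and 5.42 at E13.5 and 5.90, 5.81 and 5.79 at E14.5, where background ended at 5.02. Wt1 and Tnnt2 have no named probe. Of 17 epicardial and mesothelial markers with a named probe, 11 were bright enough to be tested. Some of them were above background on all 6 arrays, such as Krt19 at 6.80 to 7.71, Tcf21 at 7.19 to 8.43 and Upk3b at 5.31 to 6.80. Markers of endothelium, fibroblasts and red blood cells were also above background, as described with the results they touch. In RNA from a mixed sort, fewer cells of a type and less RNA per cell cannot be told apart.

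The 3 arrays labelled E13.5 did not stand together, and this bears on every result below. Over the 12409 genes, E13.5 replicate 1 correlated at 0.9914, 0.9907 and 0.9895 with the 3 E14.5 arrays, but at 0.9856 and 0.9847 with E13.5 replicates 2 and 3. Those 2 correlated at 0.9906 with each other, and the E14.5 arrays at 0.9936 to 0.9951 among themselves. These correlations describe single arrays across genes, which are not independent replicates. Replicate 1 thus lay nearer to the next day than to the arrays that carry its own label, and whether that label gives its stage was not tested. The median SD of a gene was 0.17 at E13.5 and 0.10 at E14.5. It was 0.12 at E11.5, 0.14 at E12.5 and E15.5 and 0.17 at E16.5, so E14.5 was the lowest stage. Among the genes called below, the median SD was 0.25 at E13.5 and 0.08 at E14.5. The standard errors below pool the spread of all stages and so do not reflect that difference. Genes that tell the sexes apart differed as well. Eif2s3y, a gene of the Y chromosome, was at 7.62, 7.74 and 6.82 at E13.5 and not well above background on any E14.5 array. Xist, transcribed from the inactive X of females, was at 8.13, 4.65 and 8.94 at E13.5 and at 10.23, 10.54 and 10.57 at E14.5. Sex and stage cannot be told apart between these groups, also for genes on other chromosomes.

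With all 6 arrays, 480 of the 12409 genes (3.87%) passed an adjusted p of 0.05 in the limma test, 213 higher at E14.5 (1.72%) and 267 lower (2.15%). The shares of 1.72% and 2.15% are the background for all list counts below, and 1 call in a short list says little about that list. The median log2 change over all genes was -0.0007 on arrays that had been quantile-normalized. The 6 arrays separated by stage without overlap for 1506 genes higher (12.1%) and 1536 lower (12.4%). Among the 213 rises, the median distance of the E14.5 mean from E13.5 replicate 1 was 0.41 on the log2 scale, against 0.72 from replicate 2 and 0.78 from replicate 3. Replicate 1 was the E13.5 array nearest to E14.5 for 167 of the 213 (78.4%). Among the 267 falls the distances were -0.36, -0.65 and -0.79, and replicate 1 was nearest for 203 (76.0%). Replicate 1 still lay outside the E14.5 range on the side of the call for 207 of the rises and 262 of the falls. The call itself required the groups to differ, so these shares describe the arrays and test nothing.

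**Figure D1:**
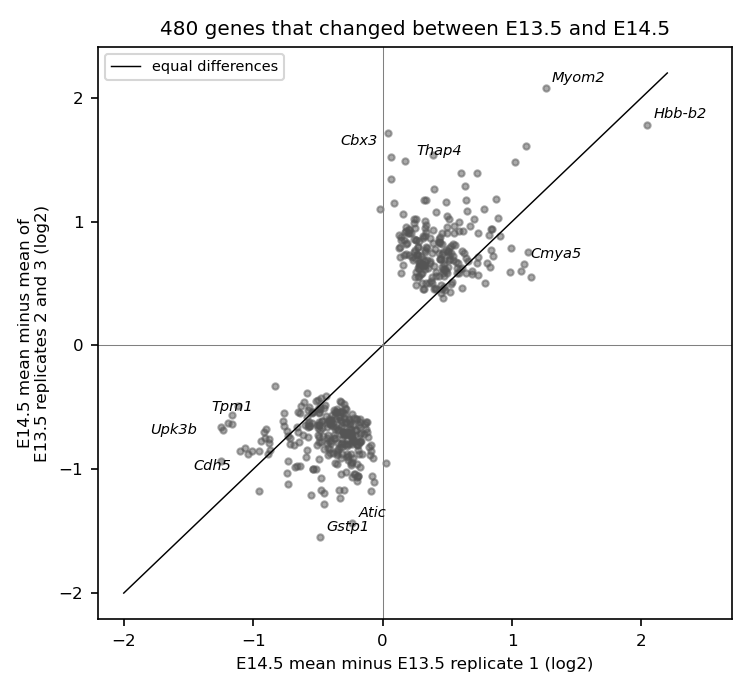
Each point is 1 of the 480 genes that changed. The horizontal axis gives the E14.5 mean minus E13.5 replicate 1 and the vertical axis the E14.5 mean minus the mean of E13.5 replicates 2 and 3, both on log2. Most points lie farther from 0 on the vertical axis than on the horizontal one, while Cmya5, Tpm1, Upk3b and Cdh5 are among those at least as far from 0 on the horizontal axis.

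Each E13.5 array was then used alone against the 3 E14.5 arrays, in a fit that assumed the lone array to vary like the other stages. Replicate 2 alone gave 213 rises (1.72%) and 148 falls (1.19%), together 2.91% of genes. Replicate 3 alone gave 367 rises (2.96%) and 459 falls (3.7%), together 6.66%. Replicate 1 alone gave 2 rises (0.0161%) and 1 fall (0.00806%) by limma, together 0.0242%, namely Myom2, Cmya5 and Oit3, each at an adjusted p of 0.0331. With replicates 2 and 3 each used alone, 128 genes rose and 95 fell in both fits. Of these, Myom2 was the 1 gene that also passed with replicate 1. It is therefore the 1 gene of 12409 (0.00806%) whose change passed against each E13.5 array. Without replicate 1 the counts rose to 726 and 716, and without any other array they dropped to between 29 and 68 rises and between 31 and 71 falls. Across the 6 fits that left out 1 array each, 24 of the 213 rises (11.3%) and 20 of the 267 falls (7.49%) passed every time.

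**Figure D2:**
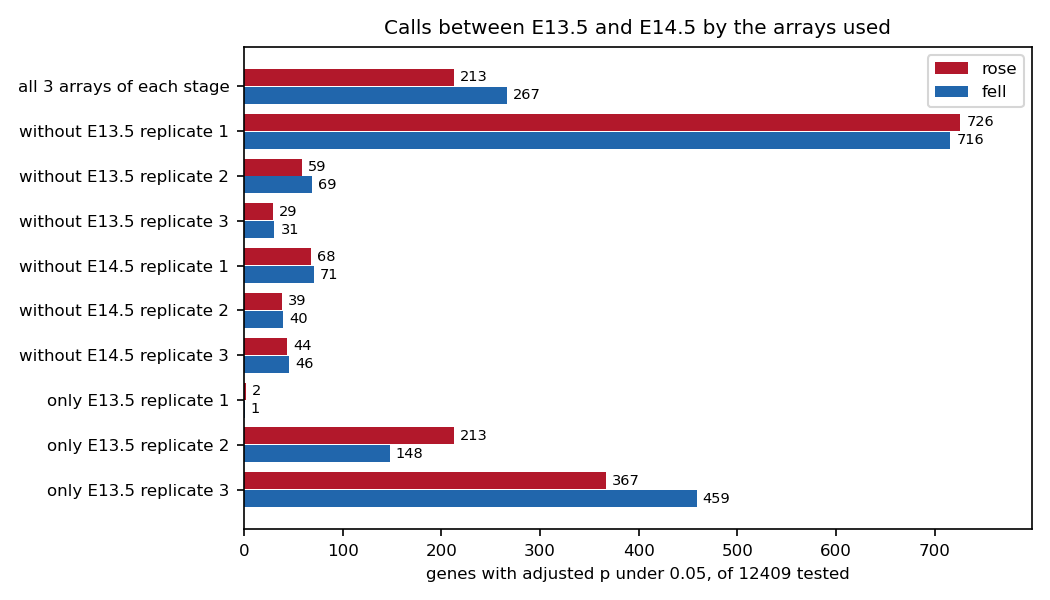
Bars give the number of genes with an adjusted p under 0.05 between E13.5 and E14.5, red for rises and blue for falls, for the arrays named on the left. With only E13.5 replicate 1 kept the counts are 2 and 1, and without that array they are 726 and 716.

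Muscle genes were among the 24 rises that passed every time. Myom2, which encodes a protein of the sarcomere's M-band, lies on chromosome 8 at 15057653 to 15133420 (GRCm38.p6). It was at 5.88, 4.90 and 5.23 on the 3 E13.5 arrays, of which 2 were above background, and at 7.15, 7.13 and 7.15 at E14.5. All 3 E14.5 arrays were thus higher than any E13.5 array and nearly equal to each other. The log2 change was 1.81 (SE 0.18, adjusted p 1.81e-05), and it was 1.26 against replicate 1, the highest of the E13.5 arrays. Cmya5, a sarcomere-associated protein also called myospryn, was at 7.03, 7.33 and 7.60 and then at 8.10, 8.07 and 8.20. It rose by 0.80 (SE 0.13, adjusted p 0.00316), and here replicate 1 lay farthest from E14.5.

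Of 23 sarcomere genes tested, 3 rose, 1 fell and 19 did not pass, with a median log2 change of 0.09. Over all genes 1.72% rose and 2.15% fell. Beside Myom2 and Cmya5, Ldb3, a Z-disc protein, rose by 0.75 (SE 0.20, adjusted p 0.0395). Its E13.5 values of 8.07, 9.0 and 8.08 show that replicate 2 already lay near the E14.5 values of 9.08, 9.14 and 9.19. The probe of Tpm1, a tropomyosin gene, was at 9.11, 8.46 and 8.69 and then at 8.0, 7.98 and 7.86, a fall of 0.81 (SE 0.16, adjusted p 0.00872). It was far dimmer than the probes of Myl2, Myl3, Tnnc1 and Actc1, and which Tpm1 transcripts it reads was not tested. Tpm4, a non-muscle tropomyosin chosen after its values were seen, fell by 0.88 (SE 0.15, adjusted p 0.00335), but not with the mean of its probes (adjusted p 0.184), 1 of which had the opposite sign. Myh7, the beta myosin heavy chain of the embryonic ventricle, had a change of 0.53 (adjusted p 0.142), and Myh6, the alpha chain, one of -0.20 (adjusted p 0.604). Ldb3 did not pass in 5 of the 6 fits without 1 array (adjusted p up to 0.244), and Tpm1 did not pass without E14.5 replicate 3 (0.0578).

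Calcium handling genes had a median change of 0.20 over 17 members, 2 of which rose, against 1.72% of all genes. Casq2, cardiac calsequestrin, which binds the stored calcium, was at 8.21, 8.14 and 8.32 at E13.5 and at 9.31, 9.05 and 8.97 at E14.5. Here the 3 E13.5 arrays lay close together and below all E14.5 arrays, and the change was 0.89 (SE 0.16, adjusted p 0.00502). Pln, the inhibitor of the calcium pump of that store, went from 9.51, 9.24 and 9.19 to 9.62, 9.98 and 10.31, a rise of 0.66 (SE 0.16, adjusted p 0.0276). Pln did not pass without E13.5 replicate 2 or 3 or E14.5 replicate 2 or 3 (adjusted p up to 0.176).

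Some genes of mitochondrial energy supply also rose. Perm1, a muscle regulator of mitochondrial gene expression, was at 6.81, 6.49 and 6.86 and then at 7.79, 7.74 and 7.58. It rose by 0.98 (SE 0.16, adjusted p 0.00243), with a gap of 0.90 to replicate 1. Ppargc1a, the transcriptional coactivator PGC-1alpha, which was named after its values were seen, was at 9.35, 9.30 and 9.20 and then at 10.20, 10.18 and 10.18. The arrays of each day agreed closely, and the rise was 0.91 (SE 0.15, adjusted p 0.00306). In the list for fatty acid uptake and oxidation, 3 of 22 rose, against 1.72% of all genes, and 19 did not pass. The median was 0.18, and 18 changes were positive, against 6189 of 12409 over all genes. The 3 that rose were acyl-CoA dehydrogenases, which catalyse the first step of beta-oxidation for fatty acids of different chain lengths. Acadl was at 8.32, 7.47 and 7.84 and then at 8.84, 8.85 and 8.76, a rise of 0.93 (SE 0.15, adjusted p 0.00312). Acadvl rose by 0.64 (SE 0.13, adjusted p 0.011) and Acads by 0.69 (SE 0.17, adjusted p 0.0308), and neither passed without E13.5 replicate 2 or 3 (adjusted p up to 0.0904 and 0.247). Acads went from 9.63, 9.14 and 8.65 to 9.82, 9.77 and 9.90, but had already been at 9.58, 9.68 and 9.92 at E12.5. Its E14.5 level was thus near that of E12.5. Acadl and Acadvl, in contrast, were lower on every E12.5 array than on any E14.5 array. Acadl and Acads each had another probe of opposite sign that did not pass, and neither passed when all probes of a gene were averaged (adjusted p 0.096 and 0.297). The summed list stood higher on every E14.5 array, at a mean of 8.91 to 8.97 against 8.68 to 8.80.

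Among 19 genes of oxidative phosphorylation, Cox8b alone passed, and the median was -0.01. Cox8b, a muscle form of a cytochrome oxidase subunit, went from 9.90, 9.60 and 9.40 to 10.59, 10.55 and 10.35, a rise of 0.86 (SE 0.17, adjusted p 0.0067). It did not pass without E13.5 replicate 3 (adjusted p 0.0694). Of 17 glycolysis genes Pkm, a pyruvate kinase, fell by 0.72 (SE 0.15, adjusted p 0.0126), from 11.52, 11.83 and 12.39 to 11.22, 11.17 and 11.21. Its values at E13.5 were highest on replicate 3, and it passed in 3 of the 6 fits, not without that array (adjusted p 0.121) or without E14.5 replicate 2 or 3. Its other probe had the opposite sign without passing. Corin and Klhl41, both picked after their values were seen, also rose. Corin, the protease that activates atrial natriuretic peptide, was at 8.22, 8.30 and 8.28 and then at 8.93, 9.04 and 9.21, a change of 0.79 (SE 0.12, adjusted p 0.00243). Klhl41, a kelch protein of striated muscle, changed by 0.91 (SE 0.17, adjusted p 0.00511). Perm1, Ppargc1a, Acadl, Casq2, Corin, Klhl41, Myom2 and Cmya5 passed in all 6 fits without 1 array, but Cmya5, like Acadl, did not pass with the mean of its probes (adjusted p 0.0505).

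**Figure D3:**
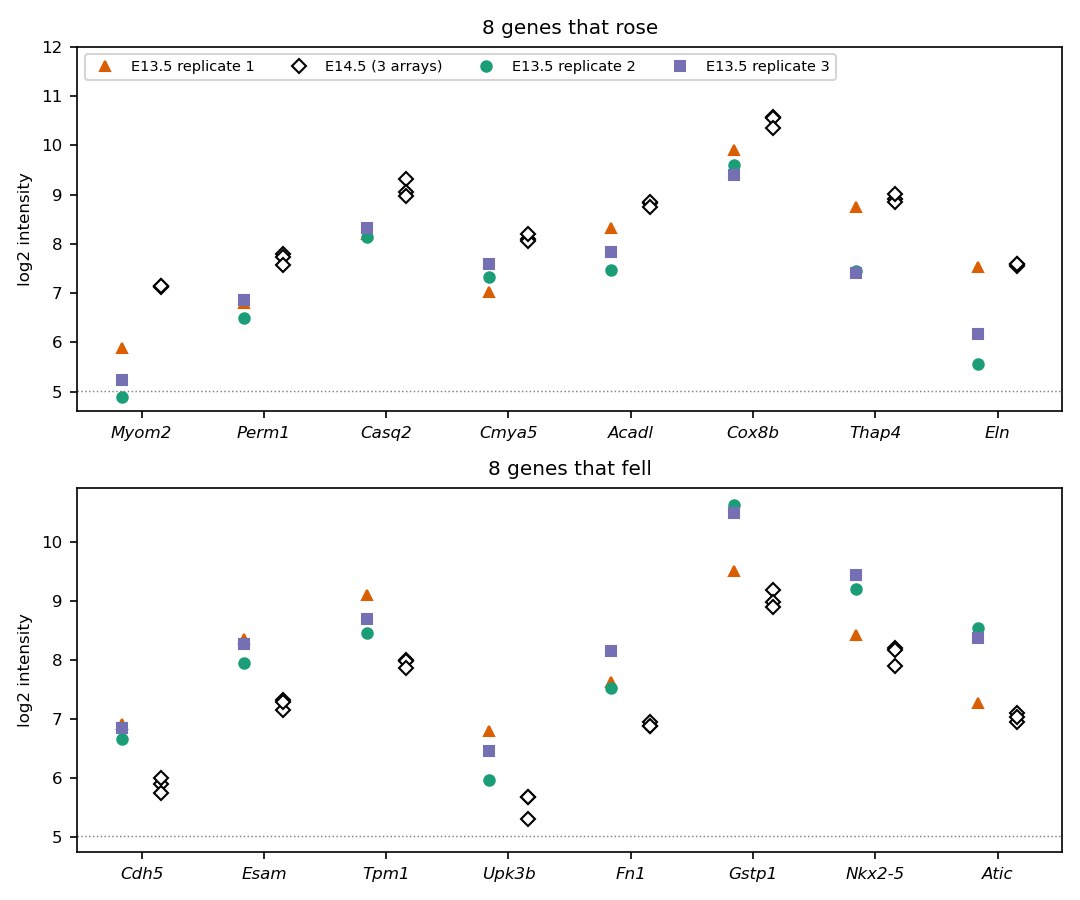
Log2 intensity of 16 genes on the 6 arrays, with filled symbols for the E13.5 arrays, open diamonds for the 3 E14.5 arrays and a dotted line at the detection limit of 5.02. For Perm1, Casq2, Cmya5, Cdh5, Esam and Tpm1 replicate 1 lies with or beyond the other E13.5 arrays, whereas for Thap4, Eln, Gstp1, Nkx2-5 and Atic it lies near E14.5.

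Endothelial genes had the lowest median of the 10 marker lists. Of 20 tested, 4 fell, against 2.15% of all genes, and 16 did not pass. A negative change was seen for 19, against 6220 of 12409 over all genes, and the median was -0.50. The arrays of the days did not overlap for 13 of the 20, all lower at E14.5, against 12.4% of all genes. Cdh5, the VE-cadherin of endothelial junctions (chromosome 8, 104101613 to 104144504, GRCm38.p6), was at 6.92, 6.66 and 6.85 and then at 5.89, 5.75 and 6.0. It fell by 0.93 (SE 0.19, adjusted p 0.0104). Esam, an adhesion molecule of the same junctions, went from 8.36, 7.95 and 8.27 to 7.33, 7.16 and 7.28, a fall of 0.94 (SE 0.23, adjusted p 0.0277). In both genes all 3 E13.5 arrays were higher than every E14.5 array, and replicate 1 was the highest of them.

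Eng, the TGF-beta coreceptor endoglin, fell by 0.80 (SE 0.19, adjusted p 0.0191), from 6.86, 6.66 and 6.74 to 5.97, 5.90 and 5.98. Robo4, an endothelial guidance receptor, fell by 0.75 (SE 0.20, adjusted p 0.0391), from 7.89, 7.60 and 7.73 to 6.87, 6.95 and 7.13. Its other probes included 1 of opposite sign, which did not pass. Pecam1, the endothelial surface marker CD31, had a change of -0.57 (adjusted p 0.0988), and Flt1, a VEGF receptor, one of -0.64 (adjusted p 0.121). The median difference of the list was -0.79 against replicate 1, -0.22 against replicate 2 and -0.44 against replicate 3. Without replicate 1 the median was -0.37 and 3 members passed, and in the fits without any other array the median was -0.49 to -0.59 and at most 1 passed. None of the 4 passed without E13.5 replicate 3 or without E14.5 replicate 2, where Cdh5 had adjusted p values of 0.0663 and 0.0631. Robo4 passed in 0 of the 6 fits without 1 array (adjusted p 0.0621 to 0.15), and Eng and Esam each passed in 1. From E12.5 to E14.5 the changes were -0.47 for Cdh5, -0.45 for Esam, -0.34 for Eng and -0.38 for Robo4, and none passed by limma.

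Further endothelial genes were picked after their values were seen, and so support nothing about the list. Nos3, the endothelial nitric oxide synthase, was at 6.32, 6.26 and 6.35 and then at 5.57, 5.28 and 5.44, a fall of 0.88 (SE 0.17, adjusted p 0.00674). Ets1, a transcription factor of the ETS family, was at 8.57, 8.33 and 8.61 and then at 7.73, 7.5 and 7.60, a fall of 0.89 (SE 0.15, adjusted p 0.00373). Esm1, Rasip1 and Plat, which mark or act in vessels, fell by 0.81, 0.77 and 0.80. Of these 5 Ets1 passed in all 6 fits without 1 array, and Nos3 missed without E14.5 replicate 2 (adjusted p 0.0521).

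The promoters of Eng and Robo4 are shown because these genes fell together and both have an entry in the RefSeq promoter table (GRCm38.p6), which gives 300 bases around a gene's start. They were searched on both strands for CAGGAAG and CCGGAAG, a pair of forms of the letters bound by ETS factors. Capitals mark a match to these 7-letter forms.
Eng, chr2:32646345-32646644, plus strand: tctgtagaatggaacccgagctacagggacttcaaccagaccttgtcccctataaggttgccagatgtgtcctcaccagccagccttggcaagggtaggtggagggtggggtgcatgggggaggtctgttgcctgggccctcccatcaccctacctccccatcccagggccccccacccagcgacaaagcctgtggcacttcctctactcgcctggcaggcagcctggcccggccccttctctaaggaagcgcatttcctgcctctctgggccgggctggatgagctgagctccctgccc
Robo4, chr9:37401722-37402021, plus strand: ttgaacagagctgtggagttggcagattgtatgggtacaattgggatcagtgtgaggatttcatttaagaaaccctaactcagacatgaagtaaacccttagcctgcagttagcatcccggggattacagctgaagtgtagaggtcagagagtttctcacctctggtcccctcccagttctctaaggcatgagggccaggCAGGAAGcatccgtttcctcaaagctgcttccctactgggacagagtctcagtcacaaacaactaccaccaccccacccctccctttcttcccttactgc
The Robo4 promoter held 1 CAGGAAG and no CCGGAAG, and neither form was in the Eng window. The shorter core GGAAG occurred 2 times in the Eng and 3 times in the Robo4 window, counting both strands and the longer match, and in 71.1% of all promoters. CAGGAAG was found in 13% and CCGGAAG in 9.12% of 27025 promoters of the same length. A match is a description of letters and says nothing of binding.

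Some epicardial and mesenchymal genes also fell. Of 11 epicardial and mesothelial genes 4 fell, against 2.15% of all genes, and 7 did not pass, with a median of -0.22. Upk3b, a uroplakin of mesothelium, was at 6.80, 5.97 and 6.46 and then at 5.68, 5.67 and 5.31, a fall of 0.86 (SE 0.19, adjusted p 0.0156). Replicate 1 was the highest and replicate 2 lay close to E14.5. Krt19, an epithelial keratin, fell by 0.69 (SE 0.15, adjusted p 0.0166) and Tcf21, a transcription factor of epicardium-derived fibroblasts, by 0.70 (SE 0.19, adjusted p 0.0475). Sparc, a matrix glycoprotein that mesenchyme also makes, fell by 0.67 (SE 0.18, adjusted p 0.0403). Without E13.5 replicate 3, or without E14.5 replicate 2 or 3, none of these 4 passed, and Tcf21 did not pass in any of the 6 fits (adjusted p 0.0505 to 0.165). Their E14.5 levels lay near those of E12.5. From E12.5 to E14.5 the changes were -0.15 for Upk3b, -0.11 for Krt19, 0.003 for Tcf21 and -0.22 for Sparc, and none passed by limma. Upk3b had risen by 0.71 from E12.5 to E13.5 (adjusted p 0.0487).

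In the fibroblast and mesenchyme list 2 of 20 genes fell, against 2.15% of all genes, and the median was -0.16. Vim, the intermediate filament vimentin, went from 10.37, 11 and 10.67 to 9.93, 9.82 and 9.76, a fall of 0.84 (SE 0.17, adjusted p 0.0104). Fn1, fibronectin, fell by 0.86 (SE 0.19, adjusted p 0.0136), though 2 of its other probes had the opposite sign without passing. Pdgfra, a fibroblast receptor, was at 9.20, 8.06 and 8.29 and then at 8.20, 8.25 and 8.39, so that replicate 1 alone was high. In the basement membrane and elastic fibre list 1 of 17 rose and 2 fell, against 1.72% and 2.15% of all genes. Col6a1, a chain of collagen VI, went from 8.58, 8.51 and 9.23 to 7.88, 7.74 and 7.90, a fall of 0.93 (SE 0.20, adjusted p 0.0144), and Col4a2, a basement membrane collagen, fell by 0.71 (SE 0.17, adjusted p 0.0277). Eln, which encodes elastin, was at 7.53, 5.56 and 6.16 and then at 7.59, 7.55 and 7.59. Its rise of 1.16 (SE 0.29, adjusted p 0.0313) rested on replicates 2 and 3, since replicate 1 was 0.04 below the E14.5 mean. None of Vim, Fn1, Col6a1, Col4a2 and Eln passed without E13.5 replicate 3 (Eln had an adjusted p of 0.185). From E12.5 to E14.5 Vim changed by -0.34, Fn1 by -0.22 and Col6a1 by 0.46, and none of them passed by limma. Eln rose by 1.845 over those days (adjusted p 0.000664).

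**Figure D4:**
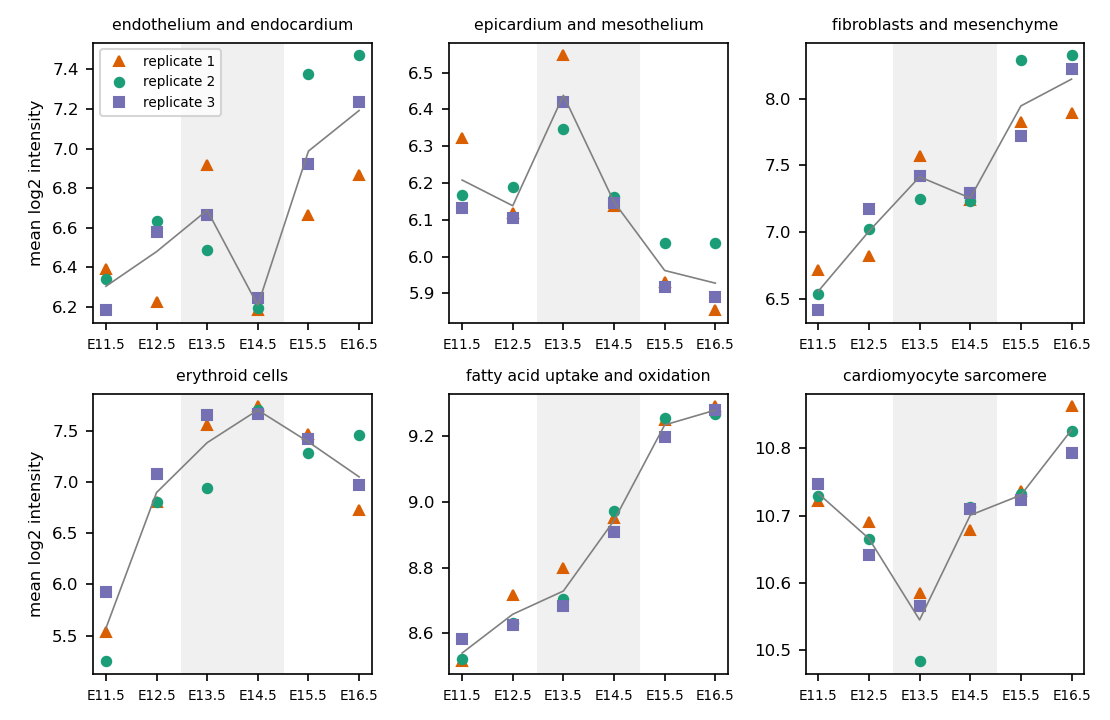
Mean log2 intensity of the tested members of 6 gene lists on each of the 18 arrays, with a line through the stage means and E13.5 and E14.5 shaded. The endothelial mean is 6.49 to 6.92 at E13.5 and 6.18 to 6.25 at E14.5, and the stage mean is 6.99 at E15.5.

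Other cell types were checked with their marker lists. Of 10 erythroid genes none passed by limma, 4 had an unadjusted p under 0.05 with a higher value at E14.5, and the median was 0.02. Over all genes 1247 were higher (10%) and 1243 lower (10%) at that threshold. Without E13.5 replicate 1, 2 of the 10 erythroid genes passed as rises, and none did without any other array. The adult globin Hbb-bs was at 11.85, 9.64 and 11.10 and then at 12.37, 12.29 and 12.17 (change 1.41, adjusted p 0.0527), with replicate 2 far below the rest. That was the brightest of its 6 tested probes, and 1 of its other probes passed as a rise. Hbb-b2, an adult globin outside the list, had the highest change of all genes at 1.87 (SE 0.44, adjusted p 0.0196). It was above background on 1 of 3 E13.5 arrays, at 4.99, 4.86 and 5.64, and at 6.86, 7.25 and 6.98 at E14.5. Copies of the adult globin genes are so alike that a probe may read more than 1 of them, and Hbb-b2 passed in 1 of the 6 fits without 1 array. Sptb, the spectrin beta chain of red cells and muscle, went from 7.53, 6.70 and 7.44 to 8.68, 8.49 and 8.50, a rise of 1.33 (SE 0.19, adjusted p 0.0021) that passed in all 6 fits but not with the mean of its 3 probes (adjusted p 0.054). The summed erythroid list was at 7.55, 6.95 and 7.66 at E13.5 and 7.66 to 7.74 at E14.5. The part of red blood cell RNA in the rises of Hbb-b2 and Sptb was not tested.

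Lyz2, a lysozyme of macrophages, fell by 0.99 (SE 0.24, adjusted p 0.0277), from 6.15, 7.28 and 6.33 to 5.72, 5.54 and 5.55, as 1 of 10 macrophage and leukocyte genes. It passed in 1 of the 6 fits without 1 array, the one without E13.5 replicate 1, and had an adjusted p of 0.191 without E13.5 replicate 2, the highest array. Its other probe had the opposite sign without passing. Mcam, a surface protein of pericytes and endothelium, was the 1 of 12 smooth muscle and pericyte genes that fell, by 0.63 (SE 0.14, adjusted p 0.017), and it passed in 1 of the 6 fits without 1 array, the one without E13.5 replicate 1 (adjusted p elsewhere up to 0.157). Of 10 atrial and valve genes Sln, the atrial calcium pump regulator sarcolipin, rose by 1.15 (SE 0.23, adjusted p 0.00828). It was above background on replicate 1 alone at E13.5, at 6.0, 4.78 and 4.93, and at 6.5, 6.39 and 6.28 at E14.5. Of 12 platelet, 4 liver and 1 neural crest genes none passed by limma, and none had an unadjusted p under 0.05.

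Transcription factors of the heart moved both ways. Of 19 tested 2 rose, 1 fell and 16 did not pass, with a median of -0.01. Over all genes 1.72% rose and 2.15% fell. Nkx2-5, the homeobox factor of cardiac muscle, was at 8.42, 9.21 and 9.44 and then at 8.21, 8.17 and 7.89. It fell by 0.93 (SE 0.21, adjusted p 0.0156), with replicate 1 only just above E14.5. From E12.5 to E14.5 its change was -0.34 (adjusted p 0.571). Tbx20, a T-box factor, rose by 0.70 (SE 0.19, adjusted p 0.0407), and 2 of its other probes had the opposite sign without passing. Isl1, a LIM homeobox factor, rose by 0.76 (SE 0.17, adjusted p 0.017) from values above background on replicate 1 alone (5.65, 4.6 and 4.90) to 5.69, 5.85 and 5.88. None of the 3 passed without E13.5 replicate 2 or without replicate 3 (adjusted p up to 0.299).

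Secreted signals included Rspo3, a Wnt agonist, the 1 of 19 Wnt pathway genes that rose. It was at 6.88, 6.01 and 6.18 and then at 7.37, 7.49 and 7.59, a change of 1.13 (SE 0.22, adjusted p 0.00733). Igfbp3, a binding protein of insulin-like growth factors, was at 6.88, 6.46 and 6.67 and then at 5.73, 5.51 and 5.65, a fall of 1.04 (SE 0.19, adjusted p 0.00541) that passed in all 6 fits. Fgf18, a fibroblast growth factor, rose by 0.52 (SE 0.12, adjusted p 0.0234) as 1 of 12 FGF pathway genes and was above background on 1 of 3 E13.5 arrays. Cdh2, the N-cadherin of heart muscle, was the 1 of 18 genes of epithelial to mesenchymal transition that passed, with a rise of 0.83 (SE 0.21, adjusted p 0.0282) that its other probe, of opposite sign, did not show. Neither Rspo3, Fgf18 nor Cdh2 passed without E13.5 replicate 2 or without replicate 3 (adjusted p up to 0.196). Npy, which encodes neuropeptide Y and was picked after its values were seen, was at 5.85, 5.62 and 5.76 at E13.5 and not well above background on any E14.5 array, at least 1.66-fold lower (adjusted p 0.00647).

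Growth and stress lists held few calls, where 1.72% of all genes rose and 2.15% fell. Bub1b, a mitotic checkpoint kinase, fell by 0.56 (SE 0.16, adjusted p 0.0463) as 1 of 18 mitosis genes, whose median was 0.01. Of 25 DNA replication genes none passed by limma, and 3 were higher and 3 lower at an unadjusted p under 0.05, a share near the 10% of all genes in each direction. Xbp1, a factor of the unfolded protein response, rose by 0.57 (SE 0.14, adjusted p 0.0234), and Pdia4, a disulfide isomerase, fell by 0.57 (SE 0.15, adjusted p 0.042), in a list of 20. Ifitm3, an interferon-induced membrane protein, fell by 0.85 (SE 0.18, adjusted p 0.0131) and B2m, the light chain of MHC class I, by 0.53 (SE 0.14, adjusted p 0.0365), of 16 genes. Plagl1, an imprinted zinc finger gene, rose by 0.71 (SE 0.19, adjusted p 0.0374) as 1 of 15, and Rpl27, a ribosomal protein gene, fell by 0.48 (SE 0.13, adjusted p 0.0377) as 1 of 16. None of these 7 passed without E13.5 replicate 3 (adjusted p up to 0.287). The inducible chaperone Hspa1a had a large change of 1.25 that did not pass (adjusted p 0.0969), with E13.5 values of 6.39, 7.70 and 6.25.

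Some large changes were shown by E13.5 replicates 2 and 3 and hardly by replicate 1. Thap4, a THAP-domain protein gene, was at 8.75, 7.46 and 7.42 and then at 8.90, 8.85 and 9.02, a rise of 1.05 (SE 0.22, adjusted p 0.0115). Cbx3, which encodes the heterochromatin protein HP1 gamma, was at 9.88, 8.49 and 8.36 and then at 10.03, 10.01 and 9.79, so replicate 1 lay inside the E14.5 range. Gstp1, a glutathione transferase, was at 9.50, 10.64 and 10.50 and then at 9.19, 8.98 and 8.90, a fall of 1.19 (SE 0.24, adjusted p 0.01). Atic, an enzyme of purine synthesis, was at 7.26, 8.55 and 8.38 and then at 6.95, 7.10 and 7.04, and its 3 other probes had the opposite sign without passing. Replicate 1 also lay within or beyond the E14.5 range for Plpp3, Zfp637 and Selenop, which rose, and for Prrc2a, Dnah11, Sympk and Usp7, which fell. Cbx3 and these 7 genes were chosen for the position of replicate 1, so that their dependence on it is a description. Other probes of Cbx3 and Usp7 had the opposite sign without passing. From E12.5 to E14.5 none of the genes of this paragraph passed by limma. The changes over those days were 0.57 for Thap4 (adjusted p 0.27), -0.09 for Cbx3 (0.944), -0.74 for Gstp1 (0.157) and -0.66 for Atic (0.172). E13.5 replicates 2 and 3 of Cbx3 and Sympk thus lay apart from E12.5 as well as from E14.5.

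Large falls that passed in all 6 fits included Fscn1, Hdac7 and Gtpbp1. Fscn1, the actin-bundling protein fascin, was at 8.23, 8.24 and 8.65 and then at 7.33, 7.29 and 7.19, a change of -1.10 (SE 0.19, adjusted p 0.00373). Hdac7, a histone deacetylase known from endothelium, was at 6.04, 6.5 and 6.34 and then at 5.36, 5.37 and 5.18, a change of -0.99 (SE 0.16, adjusted p 0.00266). Gtpbp1, a GTP-binding protein gene, changed by -0.95 (SE 0.17, adjusted p 0.0041), but its other probe had the opposite sign and the mean of both did not pass (adjusted p 0.0637). Among rises, Odr4 with 1.17 (SE 0.19, adjusted p 0.00312) and Zfp871, a zinc finger gene, with 1.08 (SE 0.19, adjusted p 0.00373) did so too. Col2a1, a cartilage and early mesenchyme collagen, fell by 1.0 (SE 0.21, adjusted p 0.0123) and Strn4, a striatin, by 0.94 (SE 0.18, adjusted p 0.0066). Pcyt1a, a phosphatidylcholine synthesis enzyme, rose by 1.0 (SE 0.19, adjusted p 0.00622) and Ppp1r14c, a phosphatase inhibitor with 1 other probe of opposite sign, by 0.99 (SE 0.18, adjusted p 0.00452). Without E13.5 replicate 3 these 4 had adjusted p values of 0.051 to 0.105.

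The arrays of the days on either side entered the contrast only through the shared estimate of the spread. Between E12.5 and E15.5, 6.45% of all genes rose and 5.29% fell. Of the 213 genes that rose from E13.5 to E14.5, 47 rose (22.1%) and 12 fell (5.63%) over that longer span. Of the 267 that fell, 36 fell (13.5%) and 15 rose (5.62%). In 2 separate fits of 6 arrays each, which share neither arrays nor spread, 42 of 191 rises also rose (22%, against 5.28% of all genes) and 29 of 205 falls also fell (14.1%, against 4.12%). In the opposite direction, 10 of the rises fell (5.24%) and 19 of the falls rose (9.27%). Where the gap to E13.5 replicate 1 was at least 0.5 of the mean gap to the other E13.5 arrays, 38 of 125 rises also rose over the longer span (30.4%), and where it was smaller, 9 of 88 (10.2%). For falls the shares that also fell were 20 of 140 (14.3%) and 16 of 127 (12.6%), and the shares that rose instead were 14 of 140 (10%) and 1 of 127 (0.787%). Of the 24 rises that passed in all 6 fits without 1 array 12 also rose over the longer span, and of the 20 such falls 5 fell and 1, Ets1, rose. Cutting the genes this way was decided after the data were seen, and the difference between the shares was not tested. The called genes were also brighter, with a median log2 mean of 7.75 for rises and 7.03 for falls against 6.20 for all genes. The shares of all genes were not matched for brightness.

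Individual genes followed different courses over the 6 days. Myom2, with a change of 3.87 (adjusted p 7.29e-13) from E12.5 to E15.5, Perm1 with 3.0, Cox8b with 3.10 and Casq2 with 2.17 rose over the longer span too. Ppargc1a had a change of 0.19 there (adjusted p 0.54). Esam, which fell from E13.5 to E14.5, was higher at E15.5 than at E12.5 by 1.20 (adjusted p 0.00103), as were Col6a1 by 2.23 and Ets1 by 0.59. Rspo3 was lower at E15.5 than at E12.5, with a change of -1.25 (adjusted p 0.000361), although it rose between the middle days. The endothelial list as a whole had stage means of 6.30, 6.48, 6.69, 6.21, 6.99 and 7.19 from E11.5 to E16.5, so that E14.5 was the lowest of the 6.

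**Figure D5:**
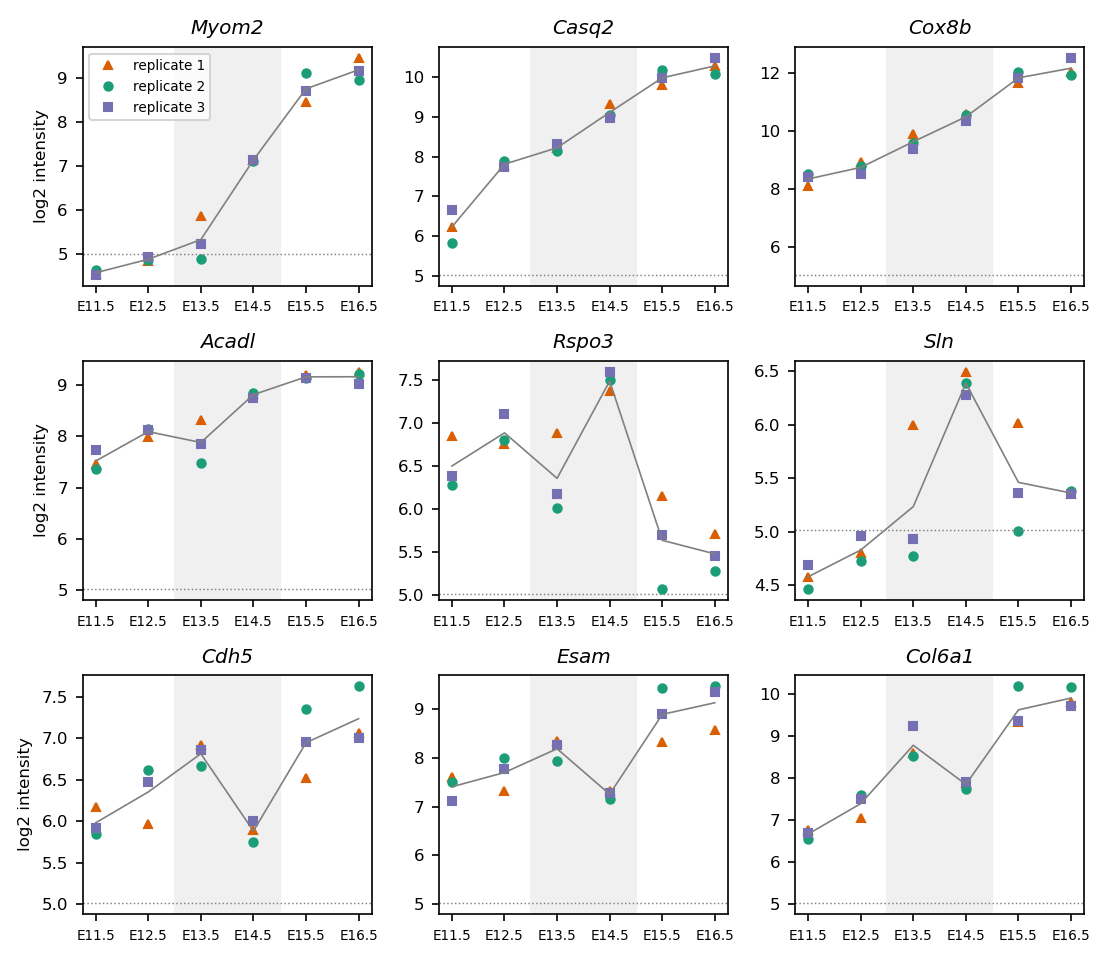
Log2 intensity of 9 genes on all 18 arrays, with a line through the stage means, E13.5 and E14.5 shaded and a dotted line at the detection limit of 5.02. Myom2, Casq2 and Cox8b climb at E15.5 as well, Rspo3 and Sln are highest at E14.5, and Cdh5, Esam and Col6a1 dip at E14.5 below E13.5 and E15.5.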

How the data were processed

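RNA of GFP-positive ventricular cells had been hybridized as biotin-labelled cRNA to Illumina arrays. The deposited values were linear intensities that had been quantile-normalized: sorted values differed between the 18 arrays by no more than 0.0873%. The submitters' processing notes name GenomeStudio 2011.1 but no settings. A second table, whose 36 columns match no sample name, was not used, which leaves detection p-values and chip positions of the arrays unknown here. Precision is limited by the number of arrays, 3 per stage.

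Background was corrected with normexp (limma 3.58.1, R 4.3.3, offset 16) and values were put on log2. Probes above an intensity of 105.4 (the mode plus 1.64 SD of the values below it, 5.02 on log2) on at least 3 arrays were tested, 25403 of 45281. All 18 arrays entered 1 limma model with a coefficient per stage (lmFit, eBayes), and p-values were adjusted by the Benjamini-Hochberg method over all tested probes. A gene stands for its brightest tested probe. Symbols came from the platform annotation, which gives 1 symbol to 34885 probes, several to 18 and none to 10378; 34807 were matched through Entrez to RefSeq (GRCm38.p6), where chromosomes were read. Standard errors are those of the moderated test. An exact permutation test of 3 against 3 arrays cannot go below 0.1. For a gene below background on every array of 1 day, the fold is a bound against the dimmest probe that was above background.

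Members, gene lists and alternatives were chosen with earlier results of these data known. Named genes were the 12 largest rises and 12 largest falls with no overlap, changes that passed against each E13.5 array, the 4 largest rises and falls for which E13.5 replicate 1 lay within or beyond the E14.5 range, up to 4 passing members of each list (or its 2 largest changes), and 11 set genes; Mki67 had no named probe. Others are marked as picked after their values were seen. The contrast of E15.5 with E12.5, its splits and its separate fits were added after seeing the data.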

Additional observations from a re-analysis of the deposited data

How the results depend on the processing

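The numbers of genes that rose and fell, 213 and 267 with all arrays, ran from 29 to 726 and from 31 to 716 when 1 array was left out. The highest counts came without E13.5 replicate 1 and shared 208 and 262 genes with the full set. Keeping 1 E13.5 array gave 2 and 1 (replicate 1), 213 and 148 (replicate 2), and 367 and 459 (replicate 3). Array weights gave 726 and 730, with a weight of 0.481 for E13.5 replicate 1. The lowest weight was 0.392 for E16.5 replicate 3, and the highest 1.97 for E14.5 replicate 2. With E13.5 replicate 1 alone Zfp637 and Sympk turned direction, at -0.0176 and 0.0249. The other alternatives (background, filter, 6 arrays only, centring, variance prior, probes per gene, X and Y left out first) gave 180 to 302 rises and 201 to 367 falls. The genes called differed more than the totals. Centring kept 212 of the rises and 267 of the falls, no background correction 168 and 209, and the mean of all probes 126 and 173. The fit of only the 6 arrays kept 151 and 158. Eln, Cbx3, Plpp3, Tbx20, Acads and Ldb3 were among the calls lost there. Of 82 named genes that passed, 19 passed in all 6 fits without 1 array, 43 under all 11 settings other than array choice, and 13 under both. The causes were not tested. Signal near background limits Myom2, Hbb-b2, Sln, Isl1 and Fgf18 at E13.5.

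With the replicate number as a block (replicate block), 327 genes rose and 357 fell, and all 480 calls were kept. Deviations of same-numbered arrays of the 2 days correlated at 0.158, 0.128 and 0.0768, each highest with its own number. These correlations are tied to one another, because each deviation is taken from its stage mean, and they have no reference value. No label ties the numbers together, and whether they pair the arrays was not tested.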

Other observations

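Further genes passed in all 6 fits without 1 array and lie outside the gene lists. They were picked after their values were seen. Chrm2, the muscarinic acetylcholine receptor of the heart, rose by 0.79 (SE 0.15, adjusted p 0.0057 by limma), Fndc5, the precursor of irisin, by 0.85 (SE 0.14), and Pank1, a kinase of coenzyme A synthesis, by 0.70 (SE 0.12). All 3 also rose from E12.5 to E15.5. Nes, the intermediate filament nestin, fell by 0.73 (SE 0.13), Gap43, a growth cone protein, by 0.76 (SE 0.13), and Bcat1, a branched-chain aminotransferase, by 0.74 (SE 0.11). These 3 also fell from E12.5 to E15.5.

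Genes named Zfp, Zbtb, Zkscan or Zscan, most of which encode zinc finger proteins, made up 12 of the 213 rises (5.63%) and 3 of the 267 falls (1.12%), against 287 of 12409 genes (2.31%). The median genomic span was 32.47 kb for genes that rose, 19.66 kb for those that fell and 21.78 kb for all genes tested. These shares and medians are descriptions without a test.

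The lists for cell cycle inhibitors (13 genes tested), hypoxia (16), immediate early genes (19), heat shock (16), Notch (15), BMP (18), retinoic acid (9), iron and heme (11) and ribosome biogenesis (15) had no member that passed by limma. At an unadjusted p under 0.05 each held between 0 and 3 members in either direction, against 10% of all genes in each. The most were 3 of 11 iron and heme genes, which were lower, and 3 of 16 heat shock genes, which were higher. Those shares are above 10% and were not tested.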
